A study of Homo sapiens with 22 samples.

Results

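The genes described here are 10 genes of metallothioneins and zinc handling, out of 61487 genes counted in Caco-2 cells. They were chosen by name: the metallothioneins MT1E, MT1F, MT1G, MT1M, MT1X and MT2A, the zinc-sensing transcription factor MTF1, the zinc exporter SLC30A1 and the zinc importers SLC39A4 and SLC39A10. All 10 were found in the count table by their Ensembl identifiers. Of these, 7 had a count above 5 in at least 3 samples and were tested, and MT1E, MT1G and MT1M had a count of 0 in all 22 libraries.

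Caco-2 cells are a human colorectal adenocarcinoma line that is widely used in place of enterocytes. They were exposed for 48 h after 10% of the medium had been replaced by phosphate-buffered saline (PBS, n = 4), by faecal water from untreated mice (FWctl, n = 7), by faecal water from the same mice during antibiotic supplementation (FWatb, n = 7) or by the same antibiotics added directly (ATB, n = 4). Faecal water is the supernatant of homogenised faeces in PBS. The antibiotic solution held neomycin at 1 g/L, vancomycin at 0.5 g/L and meropenem at 0.25 g/L, and the basal medium of every group also contained serum and an antibiotic-antimycotic supplement. One FWctl sample was left out of the study's own analysis without being named. FWctl replicate 1 was taken as that sample, a choice made with earlier results of these data known, and its values are given apart from the 21 samples of the fit. It lay at 9.12 on the first principal component, against 36.1 to 41.0 for the other FWctl samples. The comparisons address how zinc-handling transcripts respond to faecal water, and whether that response differs once the donor mice receive antibiotics.

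Metallothioneins are small cysteine-rich proteins that bind zinc and copper in the cytosol, and their genes lie in one cluster on chromosome 16. When free zinc rises, MTF1 binds metal response elements upstream of metallothionein genes and of SLC30A1, and their transcription increases. SLC30 proteins carry zinc out of the cytosol and SLC39 proteins carry it in. SLC39A4 is the importer of the apical enterocyte membrane, where it takes up dietary zinc, and SLC39A10 is a plasma membrane importer found in many cell types.

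Metal response elements are what connects the zinc sensor with its targets, so the upstream sequences of the 2 metallothionein genes that were higher after faecal water and of SLC30A1 are shown. A RefSeq promoter sequence (GRCh38.p14) was at hand for 5 of the 10 genes, MT2A, MT1X, MTF1, SLC30A1 and SLC39A10. The 160 bases before the start of each gene are written 5′ to 3′ on the gene's strand, with each match to the element's core in capitals (TGCACNC or TGCGCNC, searched on both strands, so that a match on the opposite strand reads as GNGTGCA or GNGCGCA).
MT2A, chr16:56608424-56608583, plus strand: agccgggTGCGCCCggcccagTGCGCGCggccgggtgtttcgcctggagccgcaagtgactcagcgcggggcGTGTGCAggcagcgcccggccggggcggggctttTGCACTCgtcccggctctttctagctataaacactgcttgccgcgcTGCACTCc
MT1X, chr16:56682310-56682469, plus strand: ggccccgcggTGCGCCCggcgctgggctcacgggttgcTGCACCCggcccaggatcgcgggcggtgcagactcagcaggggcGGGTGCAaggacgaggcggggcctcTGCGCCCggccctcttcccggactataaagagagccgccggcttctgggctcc
SLC30A1, chr1:211579162-211579321, minus strand: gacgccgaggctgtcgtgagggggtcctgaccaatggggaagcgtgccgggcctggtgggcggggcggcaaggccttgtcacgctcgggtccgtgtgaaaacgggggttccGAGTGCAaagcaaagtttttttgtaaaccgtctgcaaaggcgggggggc

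Over the whole 300 bases from 250 before to 50 after the start, the core matched 8 times for MT2A, 4 times for MT1X and 2 times for SLC30A1. No 2 of these matches overlapped. The 2 RefSeq entries of SLC39A10 held 0 and 1 matches, and that of MTF1 held 0. Among 35116 promoters of this length, 29.6% held at least 1 match, 8.60% at least 2 and 0.601% at least 4. A match is a description of the letters and no evidence of binding.

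The libraries held between 7118302 and 18726967 counts (median 10825978 over 22). They differed in the share of counts on ribosomal DNA transcripts, which was 0.0163% to 0.0805% in 8 libraries (2 PBS, 3 FWctl and 3 ATB) and 1.87% to 8.19% in 14, among them all FWatb libraries. Depth split the same way, with 15604065 to 18726967 counts in the 8 libraries and 7118302 to 12248577 in the 14. The labels name no batch, so fold changes are also given within the 14 libraries of high share (ATB, with 1 such library, left out). Epithelial markers were abundant, with summed normalised counts of 29800 to 40920 per sample for 10 genes. The sum of 6 leukocyte genes was 160 to 192 in PBS, 73.1 to 122 in FWctl, 153 to 226 in FWatb and 166 to 177 in ATB. For 6 fibroblast and endothelial genes it was 170 to 176, 78.4 to 113, 159 to 196 and 173 to 285 in the same order. Both sums were lower in FWctl than in PBS without overlap, and their part in the results for FWctl was not tested. CDX1 among the epithelial genes, 3 of the 6 leukocyte genes, COL1A2 and DCN did not pass the filter on low counts. The cultures were of the Caco-2 line, so the leukocyte, fibroblast and endothelial sums describe its transcripts and not numbers of other cells. Of the 4 fibroblast and endothelial genes tested, VWF rose in FWctl against PBS, while COL1A1 and PECAM1 fell. FWctl and FWatb replicates carry faecal water from different mice, whereas nothing states that the PBS or ATB replicates are separate cultures, so the p-values measure only the spread between these samples.

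**Figure D1:**
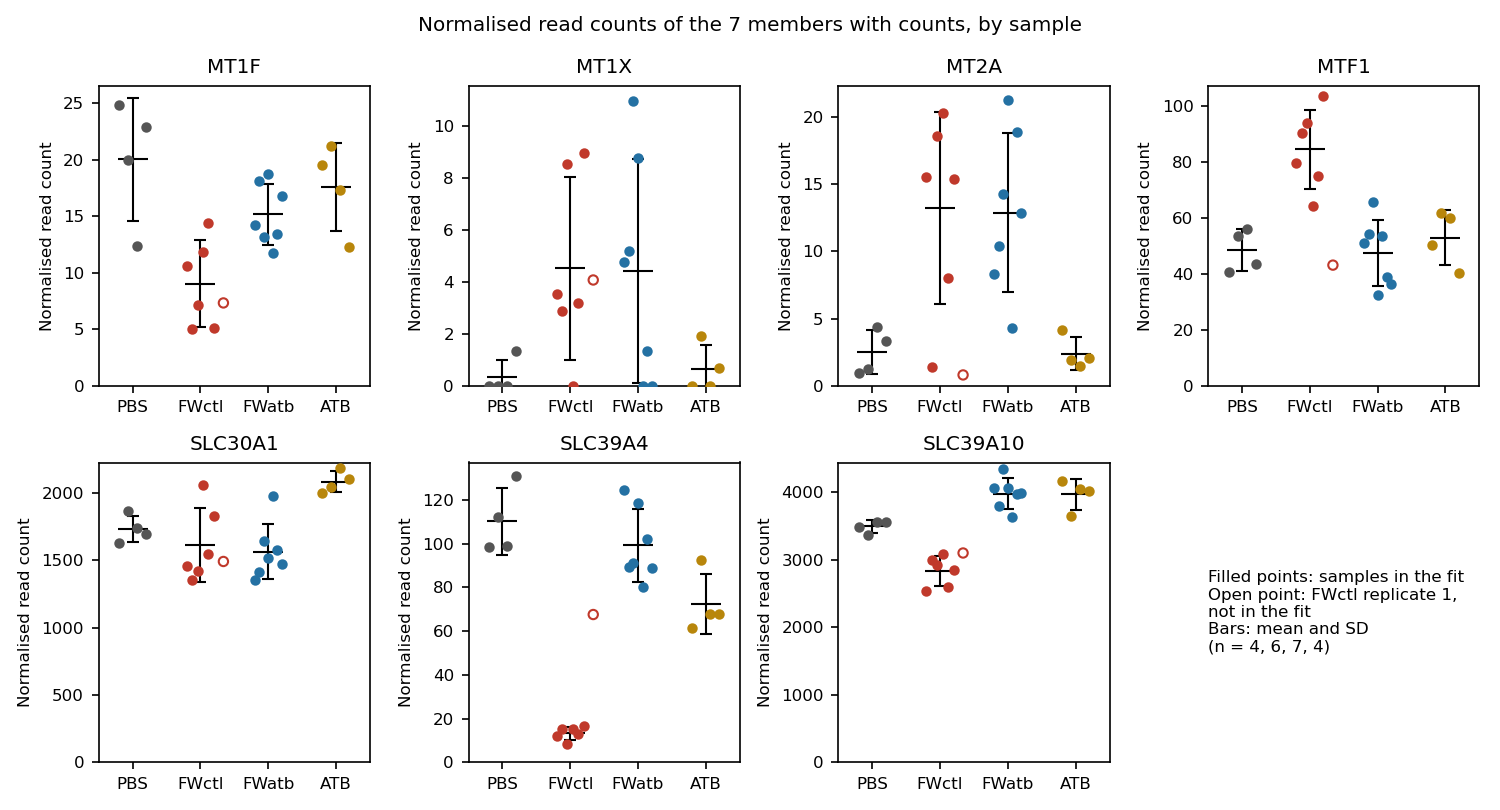
Normalised read counts (y axis, scaled to a common library size) of the 7 tested genes by condition (x axis), with 1 point per sample and the mean and SD of the samples in the fit as bars. SLC39A4 sits between 8.55 and 16.6 in the 6 filled FWctl samples, below every other sample, and the open circle marks FWctl replicate 1 at 67.6.

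Per kilobase of exon, SLC39A10 and SLC30A1 stood far above the other members, and the metallothioneins were near the limit of counting. SLC39A10 had the highest level, with 505 ± 13.0 normalised counts per kb in PBS (SD, n = 4), followed by SLC30A1 with 294 ± 16.9. SLC39A4 had 22.1 ± 3.06, MT1F 10.8 ± 2.95 and MTF1 6.08 ± 0.934 per kb in PBS. MT2A had 2.73 ± 1.79 and MT1X 0.194 ± 0.389 per kb, the SD of MT1X being larger than its mean. The exon length joins the exons of all annotated transcripts, and for MT2A (914 bases) and MT1X (1727 bases) it equals the whole gene span. A shorter spliced transcript would give higher levels per kb and could change the order of the genes. In FWctl the order changed, since MT2A rose to 14.4 ± 7.81 per kb (SD, n = 6) and SLC39A4 stood at 2.68 ± 0.585, next to MT1X at 2.61 ± 2.04. MT2A, MTF1 at 10.6 ± 1.78 and MT1F at 4.86 ± 2.07 per kb are neighbours in that order, and the SDs of MT2A and MTF1 overlap. These levels rest on few reads for the metallothioneins, whose raw counts per library were 4 to 34 for MT1F, 0 to 10 for MT1X and 1 to 22 for MT2A.

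**Figure D2:**
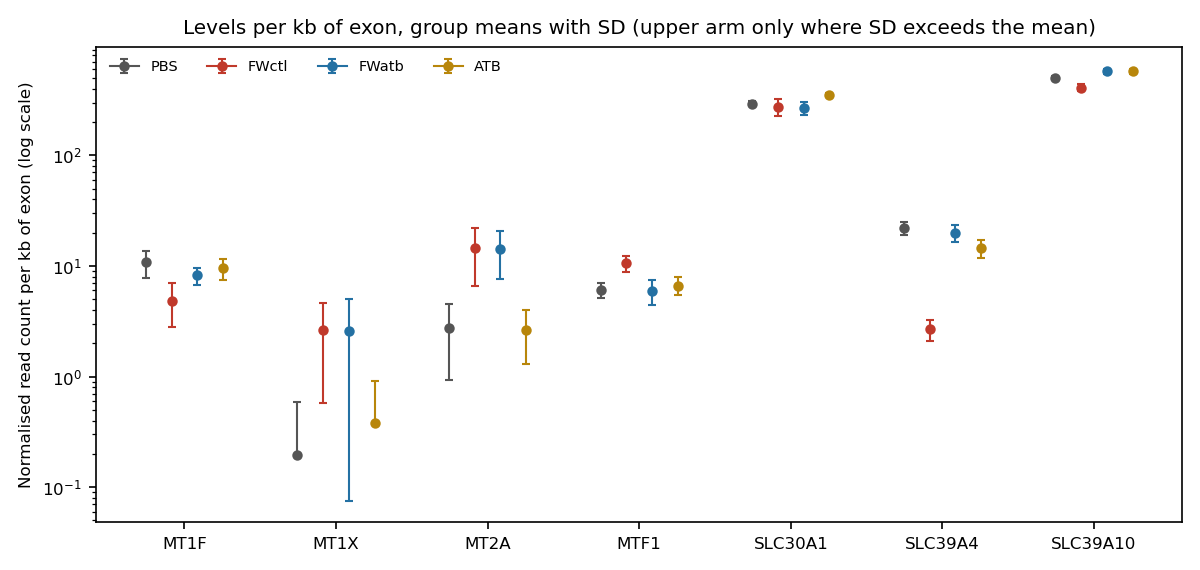
Mean normalised read count per kb of exon (y axis, log scale) for the 7 tested genes (x axis) in the 4 conditions, with the SD over 4 PBS, 6 FWctl, 7 FWatb and 4 ATB samples as bars and no lower arm where the SD exceeds the mean. SLC39A10 and SLC30A1 lie above 200 in all 4 conditions, whereas every other gene lies below 30.

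MT2A (ENSG00000125148, chromosome 16, 56608584 to 56609497 of GRCh38, plus strand), the main metallothionein of most human tissues, was higher after either faecal water than after PBS, and higher in FWatb than in ATB. Its normalised counts in PBS were 0.994, 1.25, 4.37 and 3.36, and in ATB they were 4.19, 1.93, 1.44 and 2.05. In FWctl the lowest was 1.43, the median 15.4 and the highest 20.3, and in FWatb they were 4.28, 12.8 and 21.3. Thus 5 of the 6 FWctl samples lay above all PBS samples, replicate 3 at 1.43 lay among them, and the lowest FWatb sample was just under the highest PBS sample. FWctl replicate 1, outside the fit, was at 0.815, from 1 read. MT2A had more than 5 reads in 12 libraries, all of faecal water but PBS replicate 3 and ATB replicate 1, at 6 each. It thus met the filter only through groups where it was high, so its calls are no independent support for a rise.

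Against PBS, MT2A rose by a log2 fold change of 2.14 in FWctl (SE 0.54, edgeR adjusted p = 0.000971) and of 2.17 in FWatb (SE 0.52, edgeR adjusted p = 0.00455). It was also higher in FWatb than in ATB without overlap (log2 fold change 2.30, SE 0.53, edgeR adjusted p = 0.00198). Between FWatb and FWctl it did not pass the test, with a log2 fold change of 0.02 and a 95% interval of -0.73 to 0.77. Within the libraries of high ribosomal DNA share, the log2 fold change against PBS was 3.61 in FWctl (edgeR adjusted p = 0.000432) and 3.35 in FWatb (edgeR adjusted p = 0.00661). The PBS samples there, replicates 1 and 2, held 1 read of MT2A each, so the size of these folds is uncertain. With the library set as a covariate, FWctl against PBS was 2.07 (edgeR adjusted p = 0.00169) and FWatb against PBS 1.99 (0.0279). FWatb against ATB was then 2.05 (edgeR adjusted p = 0.0420). With the replicate number as a block, FWctl against PBS lost its call (1.58, edgeR adjusted p = 0.0632) and FWatb kept it (2.36, edgeR adjusted p = 0.000842).

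MT1X (ENSG00000187193, chromosome 16, 56682470 to 56684196, plus strand), a further zinc-inducible metallothionein, was read in few molecules. The 4 PBS samples held 0, 0, 0 and 2 raw counts and the 4 ATB samples 0, 1, 0 and 1. The FWctl samples of the fit held 5, 4, 6, 0, 2 and 7, and the FWatb samples 4, 4, 10, 7, 0, 1 and 0. The groups overlapped, because 1 FWctl and 2 FWatb samples had no read of the gene. FWctl replicate 1 held 5.

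Summed over samples and scaled to depth, FWctl had 24 counts against 2 in PBS, a ratio of 10.2 with a 95% counting interval of 2.52 to 88.7. FWatb had 26 against 2, a ratio of 10.1 with an interval of 2.53 to 87.7. These intervals cover counting error only. The 4 libraries with more than 5 reads of MT1X were all of faecal water, so it met the filter only through groups where it was high. Its calls are therefore no independent support for a rise. The difference from PBS passed the test for FWctl (edgeR adjusted p = 0.0108) and for FWatb (edgeR adjusted p = 0.0416), as did FWatb against ATB (edgeR adjusted p = 0.0318), though not without FWatb replicate 3 or 4 or ATB replicate 1, 3 or 4 (log2 fold changes of 2.59 to 3.37 against 3.03, edgeR adjusted p between 0.0618 and 0.114). With the library set by ribosomal DNA share as a covariate, neither FWatb against PBS (2.67, edgeR adjusted p = 0.128) nor FWatb against ATB (2.50, edgeR adjusted p = 0.216) passed. Without PBS replicate 4, the PBS samples held no read of MT1X. Within the libraries of high ribosomal DNA share, the adjusted p from edgeR was 0.0299 for FWctl and 0.121 for FWatb against PBS, whose 2 samples there held no read of MT1X, so that no fold is given. Leaving out PBS replicate 1, 2 or 3 or FWatb replicate 1, 2, 3 or 4 brought FWatb against PBS to an edgeR adjusted p between 0.0608 and 0.130, at log2 fold changes of 2.59 to 3.01 against 3.03. With FWctl replicate 1 in the fit it was 3.03 with an edgeR adjusted p of 0.0665. FWatb and FWctl did not pass the test against each other, with a count ratio of 0.992 and an interval of 0.548 to 1.81. Of the windows of 150 bases in MT1X transcripts, 8.78% also occur in transcripts of other genes, mostly an overlapping long non-coding gene on the same strand that had 0 counts.

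MT1F (ENSG00000198417, chromosome 16, 56657731 to 56660698, plus strand) had the opposite direction from MT2A and MT1X in FWctl. Its normalised counts were 24.9, 19.9, 12.4 and 22.8 in PBS and 19.5, 21.2, 17.3 and 12.3 in ATB. The lowest, median and highest were 5.02, 8.86 and 14.4 in FWctl and 11.8, 14.2 and 18.8 in FWatb. All FWctl samples but 1 lay below the lowest PBS sample, and FWctl replicate 1 was at 7.33.

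MT1F fell by 1.19 on the log2 scale in FWctl against PBS (SE 0.30, edgeR adjusted p = 0.000911) and was higher in FWatb than in FWctl (log2 fold change 0.80, SE 0.28, edgeR adjusted p = 0.0172). FWatb against PBS gave -0.39 with a 95% interval of -0.92 to 0.15 and did not pass. In 4 of 6 same-numbered samples it was higher in FWatb than in FWctl. The rise from FWctl to FWatb lost the threshold within the libraries of high ribosomal DNA share (0.71, edgeR adjusted p = 0.0919). It was also lost with the library set as a covariate (0.66, edgeR adjusted p = 0.0714) and without FWctl replicate 3 (0.65, edgeR adjusted p = 0.0656). Of the windows of 50 bases in MT1F transcripts, 1.24% also occur in other genes' transcripts, mostly MT1M and MT1G, and no window of 150 bases does.

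No read was assigned to MT1E (chromosome 16, 56625475 to 56627112, plus strand), MT1G (56666730 to 56668065, minus strand) or MT1M (56632659 to 56633981, plus strand). A count of 0 allows up to 3 counts per library, which is 2.02 to 5.78 normalised counts depending on depth, beside a mean of 4.52 ± 3.52 (SD, n = 6) for MT1X in FWctl. The limit was above that mean in 3 libraries, those of FWctl replicates 6 and 7 and ATB replicate 2. Over the 279472354 counts of all 22 libraries, the limit is 0.0107 CPM, the unit that scales each library to the same total. Of their transcripts' windows of 50 bases, 7.10% for MT1E, 16.4% for MT1G and 18.2% for MT1M also occur in other genes, and none of their windows of 150 bases, the length of the reads, does. The multi-mapping setting is not given in the sources used here. A further 14 metallothionein genes and pseudogenes were all too low to be tested, and the highest raw count of any was 4, for the pseudogene MT1XP1.

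The neighbours of the cluster on chromosome 16 did not share one direction. Of 7 flanking genes, 6 were tested, and in FWctl against PBS 2 rose and 2 fell, where 24.3% of all genes tested rose and 22.1% fell. HERPUD1, a gene of endoplasmic reticulum protein degradation, rose by a log2 fold change of 1.07 (SE 0.08, edgeR adjusted p = 1.96e-14) and BBS2, a ciliary transport gene, by 0.36 (SE 0.09, edgeR adjusted p = 0.000681). NUP93, a nuclear pore subunit, fell by 0.42 on the log2 scale (SE 0.09, edgeR adjusted p = 0.000117) and NUDT21, an mRNA cleavage factor, by 0.29.

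MTF1 (ENSG00000188786, chromosome 1, 37809574 to 37859592, minus strand), the sensor itself, was higher in FWctl than in PBS and lower in FWatb than in FWctl. Its normalised counts were 40.8, 53.6, 56.1 and 43.7 in PBS and 50.2, 61.6, 60.0 and 40.3 in ATB. The lowest, median and highest were 64.3, 85.1 and 104 in FWctl and 32.5, 51.0 and 65.8 in FWatb. Every FWctl sample of the fit lay above every PBS sample, while FWctl replicate 1, at 43.2, lay among the PBS samples. FWatb overlapped FWctl, by its highest sample.

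The log2 fold change of MTF1 in FWctl against PBS was 0.81 (SE 0.17, edgeR adjusted p = 9.37e-05), and FWatb was lower than FWctl by -0.83 (SE 0.15, edgeR adjusted p = 8.92e-06). FWatb against PBS gave -0.02 with a 95% interval of -0.37 to 0.33, and ATB against PBS gave 0.10 with an interval of -0.28 to 0.48. Within the libraries of high ribosomal DNA share, FWctl against PBS was 0.84 (edgeR adjusted p = 0.00892) and FWatb against FWctl was -0.81 (edgeR adjusted p = 0.000338). In FWatb against PBS, no change in MTF1 passed the test, and its relation to the MT2A values there was not tested.

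SLC30A1 (ENSG00000170385, chromosome 1, 211571568 to 211579161, minus strand), the exporter that MTF1 is known to induce, did not pass the test against PBS in any condition in the main fit. Its normalised counts in PBS were 1629.7, 1865, 1739 and 1692, and in ATB 1999.7, 2046, 2183 and 2101. The lowest, median and highest were 1351, 1502 and 2057 in FWctl and 1354, 1516 and 1977 in FWatb. All ATB samples lay above all PBS and FWatb samples, and FWctl replicate 6 reached the range of ATB.

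The log2 fold change of SLC30A1 against PBS was -0.11 in FWctl (95% interval -0.30 to 0.08) and -0.15 in FWatb (-0.33 to 0.04). In ATB it was 0.27 (SE 0.10, edgeR adjusted p = 0.370), although the groups did not overlap. FWatb was lower than ATB by -0.41 (SE 0.09, edgeR adjusted p = 0.000947). Without FWctl replicate 6, FWctl against PBS became -0.23 with an edgeR adjusted p of 0.0289. With the replicate number as a block, SLC30A1 passed against PBS in FWctl (-0.36, edgeR adjusted p = 0.00219), FWatb (-0.22, 0.0125) and ATB (0.26, 0.0263). No label ties these numbers to one another across groups.

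SLC39A4 (ENSG00000147804, chromosome 8, 144409742 to 144416844, minus strand) had the largest difference of the members with more than a few reads. Its normalised counts were 98.4, 112, 99.1 and 131 in PBS and 61.4, 92.5, 67.9 and 67.6 in ATB. The 6 FWctl samples ranged from 8.55 to 16.6 with a median of 13.9, and the 7 FWatb samples from 80.3 to 125 with a median of 91.0. FWctl lay far below every other condition with no overlap, and 3 of the 7 FWatb samples lay within the span of PBS and 4 below it. FWctl replicate 1 was at 67.6, between the FWctl samples and PBS and within the range of ATB.

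SLC39A4 fell by 3.03 on the log2 scale in FWctl against PBS, 8.17-fold (SE 0.18, edgeR adjusted p = 7.60e-18), and was 7.32-fold higher in FWatb than in FWctl (log2 fold change 2.87, SE 0.17, edgeR adjusted p = 6.33e-18). All 6 same-numbered FWatb samples were above their FWctl counterparts. With FWctl replicate 1 included, these log2 fold changes were -2.31 and 2.14. FWatb against PBS did not pass, at -0.16 with a 95% interval of -0.42 to 0.10. ATB lay below PBS without overlap (log2 fold change -0.66, SE 0.15, edgeR adjusted p = 0.0377), but 7 of the 8 fits that left out 1 sample of either group lost this call, with edgeR adjusted p between 0.0602 and 0.184 at log2 fold changes of -0.55 to -0.72. It was also lost with the library set as a covariate (-0.65, edgeR adjusted p = 0.0673), with total counts alone (-0.67, 0.0599), in a fit of these groups (-0.67, 0.0565) and with FWctl replicate 1 in the fit (-0.66, 0.700). FWatb was higher than ATB by 0.50 (SE 0.14, edgeR adjusted p = 0.0104), or by 0.43 without ATB replicate 1 (edgeR adjusted p = 0.0648), 0.45 with the library set as a covariate (edgeR adjusted p = 0.123) and 0.49 with FWctl replicate 1 in the fit (edgeR adjusted p = 0.246). All FWatb libraries were of high ribosomal DNA share and 3 of the 4 ATB libraries of low share. An antisense long non-coding gene shares 180 exonic bases with SLC39A4, and its total over all libraries was 18 counts against 1599.

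Most of 7 listed enterocyte markers were lower in FWctl, as SLC39A4 was. The list held SI, ALPI, LCT, ANPEP, APOA1, APOA4 and FABP2, which are not all genes of the brush border. Their summed level over 7 genes was 11682 to 16153 in PBS, 2532 to 3302 in FWctl, 10742 to 14083 in FWatb and 14292 to 18217 in ATB. This sum mostly follows APOA1, whose mean over the 21 samples was 9870, against 397 for SI and 84.9 for ANPEP. The median log2 fold change over the 7 was -1.91 in FWctl against PBS. In FWctl against PBS, 5 of the 7 fell and 1 rose, beside 22.1% and 24.3% of all genes tested. The largest falls were those of APOA1, an apolipoprotein of chylomicrons (-2.49, SE 0.11), ANPEP, a brush border peptidase (-2.41, SE 0.15), and APOA4, a second chylomicron apolipoprotein (-2.17, SE 0.32). In ATB against PBS, 1 of the 7 rose, 0 fell and 6 were not called, beside 0.255% higher and 0.0295% lower of all genes tested. The 1 was SI, the brush border sucrase-isomaltase (0.76, SE 0.16, edgeR adjusted p = 0.0219). In FWatb against PBS, 0 rose, 1 fell and 6 were not called, beside 6.04% higher and 3.95% lower. That 1 was again SI (-0.96, SE 0.15, edgeR adjusted p = 2.42e-05). The part of these markers in the SLC39A4 result was not tested.

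SLC39A10 (ENSG00000196950, chromosome 2, 195575977 to 195737702, plus strand) was also lowest in FWctl, with smaller changes than SLC39A4. Its normalised counts were 3479, 3373, 3556 and 3567 in PBS and 4166, 3647, 4048 and 4013 in ATB. The lowest, median and highest were 2539, 2891 and 3081 in FWctl and 3631, 3992 and 4349.9 in FWatb. FWctl lay below, and both FWatb and ATB above, every PBS sample. FWctl replicate 1 was at 3101, just above the other FWctl samples.

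SLC39A10 fell by 0.30 on the log2 scale in FWctl against PBS (SE 0.07, edgeR adjusted p = 0.000351) and was higher in FWatb than in FWctl by 0.49 (SE 0.06, edgeR adjusted p = 5.93e-09), again in 6 of 6 same-numbered samples. Against PBS, FWatb gave 0.19 (SE 0.07, edgeR adjusted p = 0.0715), which passed the test without FWatb replicate 6 (0.21, edgeR adjusted p = 0.0477), with total counts alone (0.26, 0.0161), in a fit of these groups (0.19, 0.0485) and with DESeq2 (0.18, adjusted p = 0.0184). ATB gave 0.18 (SE 0.08, edgeR adjusted p = 0.440). FWatb and ATB differed by 0.00 with a 95% interval of -0.13 to 0.14.

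**Figure D3:**
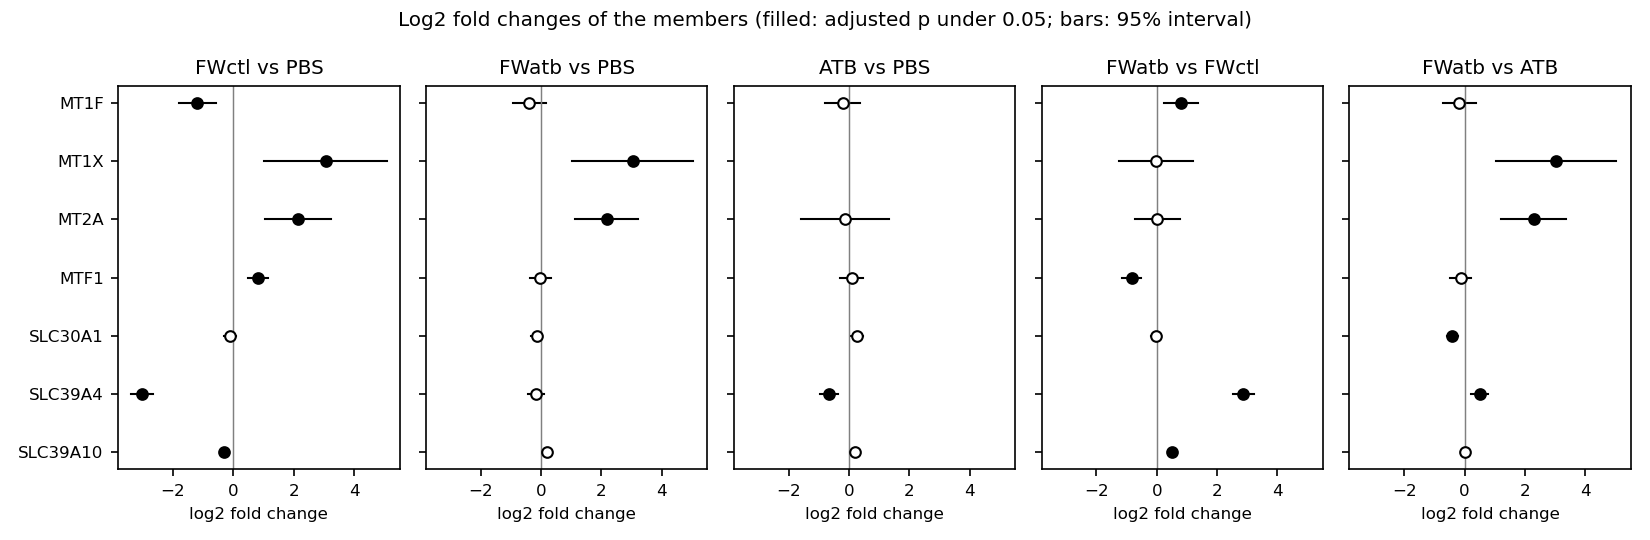
Log2 fold changes (x axis) of the 7 tested genes (y axis) in 5 comparisons, with 95% intervals as bars and filled points for an edgeR adjusted p under 0.05. MT1X in ATB against PBS is not drawn, since each group held 2 counts, and SLC39A4 is the point farthest from 0 in FWatb against FWctl, at 2.87.

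Counted together, 6 of the 7 tested genes differed between FWctl and PBS, 3 higher and 3 lower, where 46.4% of all 20373 genes tested did (24.3% higher and 22.1% lower). Between FWatb and PBS 2 of 7 differed, both higher and both metallothioneins, beside 9.99% of all genes (6.04% higher and 3.95% lower). These 2, MT2A and MT1X, met the filter on low counts only through faecal-water samples. The same holds where they are counted in FWctl against PBS and FWatb against ATB. Between ATB and PBS 1 of 7 differed, SLC39A4, which was lower, beside 0.285% of all genes (0.255% higher and 0.0295% lower). Between FWatb and FWctl 4 of 7 differed, 3 higher and 1 lower, beside 48.8% of all genes (23.4% higher and 25.4% lower). With an absolute log2 fold change above 1 as well, 1 of them remained, SLC39A4, beside 12.7% (6.12% higher and 6.60% lower). Between FWatb and ATB 4 of 7 differed, 3 higher and 1 lower, beside 14.5% (7.66% higher and 6.86% lower). The median log2 fold change over the 7 was -0.11 in FWctl and -0.02 in FWatb against PBS, beside 0.02 and 0.00 over all genes tested. The comparisons with PBS share its 4 samples.

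Among the other SLC30 exporters, 8 of 9 were tested, and in FWctl against PBS 2 rose, close to the 24.3% of all genes tested, with a median log2 fold change of 0.09 over the 8. These were SLC30A6 (0.93, SE 0.07, edgeR adjusted p = 3.09e-15) and SLC30A5 (0.56, SE 0.07, edgeR adjusted p = 3.92e-08), which together form a zinc transporter of the early secretory pathway. Both were lower again in FWatb than in FWctl, by -0.80 (SE 0.06) for SLC30A6 and -0.61 (SE 0.06) for SLC30A5. The median over the 8 was -0.01 in FWatb and 0.16 in ATB against PBS. SLC30A10, an exporter of manganese, was lower in FWatb than in ATB (-0.94, SE 0.23, edgeR adjusted p = 0.00315).

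Of the other SLC39 importers, 10 of 12 were tested, and in FWctl against PBS 4 rose and 1 fell, beside 24.3% and 22.1% of all genes tested, with a median of -0.03. SLC39A3, a plasma membrane importer, rose most (0.95, SE 0.12, edgeR adjusted p = 1.43e-08), and SLC39A5, the basolateral importer of enterocytes, rose by 0.41 (SE 0.07, edgeR adjusted p = 9.86e-06). SLC39A11 was the one that fell, by 0.48 on the log2 scale (SE 0.10, edgeR adjusted p = 4.90e-05). In FWatb against FWctl, 2 of the 10 were higher and 4 lower, beside 23.4% and 25.4% of all genes. Against PBS, SLC39A3 was higher in FWatb (0.44, SE 0.12, edgeR adjusted p = 0.0129) and SLC39A5 lower (-0.32, SE 0.07, edgeR adjusted p = 0.00169). The apical importer SLC39A4 and the basolateral importer SLC39A5 thus had opposite signs in FWctl against PBS and in FWatb against FWctl.

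**Figure D4:**
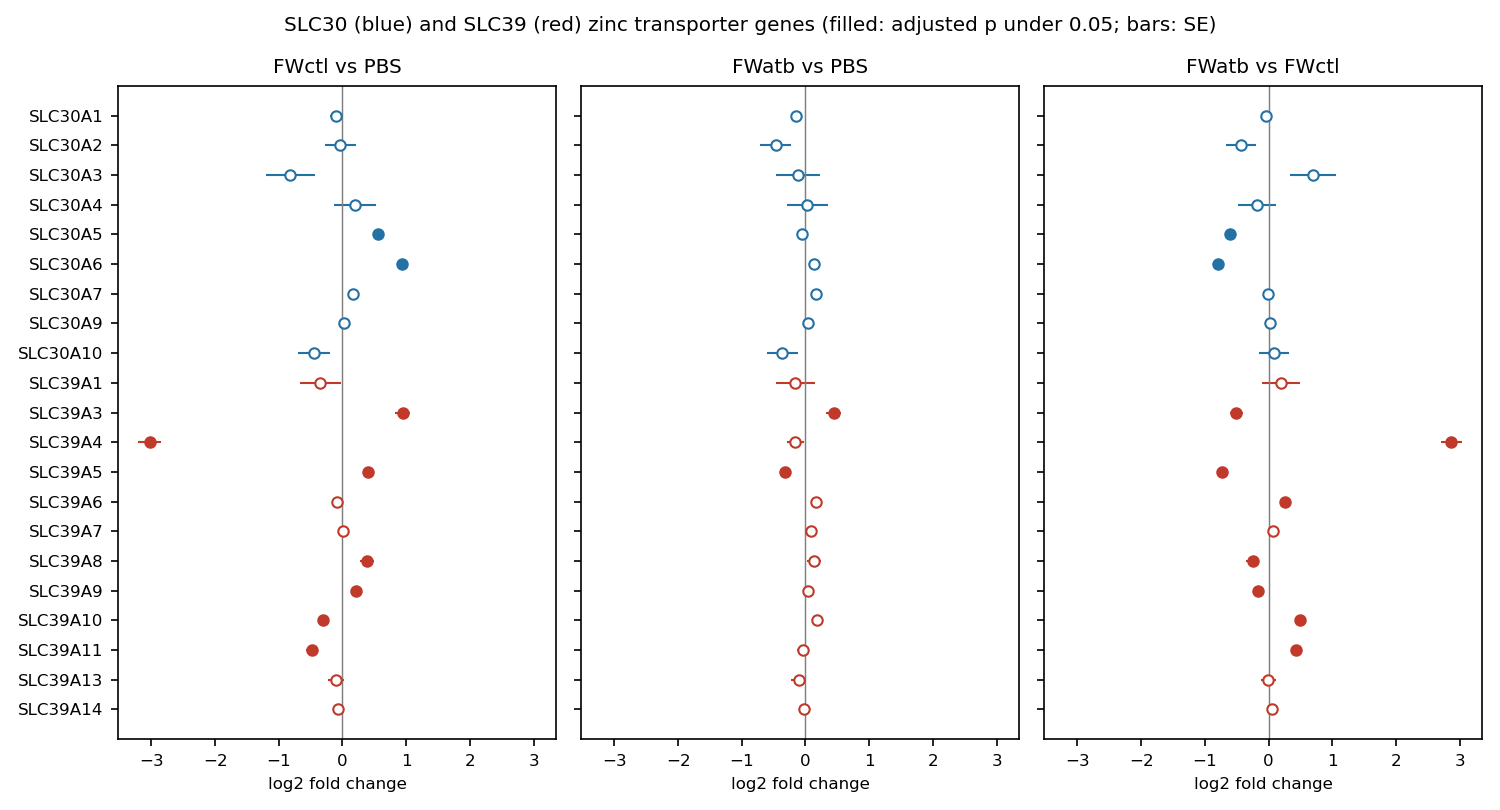
Log2 fold changes (x axis) of the tested SLC30 exporters (blue) and SLC39 importers (red) in 3 comparisons, with SE as bars and filled points for an edgeR adjusted p under 0.05. SLC39A4 is the leftmost point in FWctl against PBS, at -3.03, while SLC30A6 and SLC39A3 are the rightmost, at 0.93 and 0.95.

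Of 8 further zinc regulators, all tested, 5 rose and 1 fell in FWctl against PBS, beside 24.3% and 22.1% of all genes tested, with a median log2 fold change of 0.40. The 5 that rose were all copies of the zinc chaperone gene ZNG1, among them ZNG1C (0.79, SE 0.22, edgeR adjusted p = 0.00320) and ZNG1F (0.75, SE 0.18, edgeR adjusted p = 0.000669). These copies are close paralogues and reads shared between them were not measured, so they are uncertain as separate genes. The one that fell was GPR39, a zinc-sensing receptor (-0.45, SE 0.12, edgeR adjusted p = 0.00155). Of 9 copper-handling genes, 2 rose and 3 fell in FWctl against PBS, beside the same shares of all genes. The copper chaperone ATOX1 fell by 0.91 on the log2 scale (SE 0.09), the copper and zinc superoxide dismutase SOD1 by 0.70 (SE 0.08) and the copper exporter ATP7B by 0.58 (SE 0.09). All 3 were higher in FWatb than in FWctl, by 0.82 (SE 0.08), 0.92 (SE 0.07) and 0.64 (SE 0.08).

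Across the 21 samples, the genes with the pattern most like each member were sought among 9365 genes with a mean normalised count of at least 100, by the root mean square difference of centred log2 normalised counts. The gene nearest to SLC39A4 was NKD1, an inhibitor of Wnt signalling (difference 0.346 on the log2 scale, beside a spread of 1.27 for SLC39A4 itself), followed by SULF2 (0.377). Nearest to SLC39A10 were SMC2, ESYT2 and LRIG3 (0.0800 to 0.0946, beside 0.225), and nearest to MTF1 were GLIS3, C2orf42 and TNRC6B (0.223 to 0.234, beside 0.443). For SLC30A1 they were FZD3, RNF128 and CD164 (0.118 to 0.122, beside 0.219). For MT1F they were IGDCC3, MTATP6P1 and EPHX2 (0.287 to 0.313, beside 0.566). No gene came close to MT2A or MT1X, whose nearest, ACTL8 and SLC7A5, differed by 0.847 and 0.995, beside spreads of 1.20 and 1.30. These 2 genes held at most 22 and 10 reads in a library, so counting noise keeps them apart from genes with a mean of at least 100. The lack of a near gene therefore says nothing of their pattern. All these differences are descriptions over samples that share conditions and libraries.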

How the data were processed

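Caco-2 RNA was sequenced by the authors from stranded libraries after ribosomal RNA depletion. Per the study's methods and the submitters' processing notes, reads were trimmed with Trimmomatic 0.38, aligned to GRCh38 with HISAT2 2.1.0 and counted per Ensembl gene with featureCounts (Subread 2.0.0). The strand and multi-mapping settings are not given in the sources used here. The deposited values are the authors' raw read counts of 61487 genes in 22 samples, neither normalised nor filtered. Groups and replicate numbers came from the labels.

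Counts were tested with edgeR 4.0.16 in R 4.3.3 (TMM normalisation, quasi-likelihood test, Benjamini-Hochberg adjustment at 0.05 over the 20373 genes that had more than 5 reads in 3 or more samples) in 1 fit of 4 groups and 21 samples. SE was derived from the fold change and the F statistic. Normalised counts are counts per effective library, scaled to its mean over the 21 samples. Coordinates and symbols came from GENCODE release 44, in which 61369 identifiers were found. The edgeR step was tested on simulated data, with changes planted only in genes of higher mean count than MT1F, MT1X and MT2A. That test therefore does not cover genes as low as these. Alternatives were all 22 samples, DESeq2 1.42.0, other scalings and filters, a fit of the 2 groups at issue, replicate number as a block, the ribosomal DNA share, and each replicate left out.

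All 10 members were named throughout, other listed genes by the 3 largest called changes per list and comparison with a mean normalised count of at least 20, beside the genes flanking the cluster. Members and lists were chosen with earlier results of these data known. In none of the 54 replicate pairs did the counts agree within sampling noise (the lowest chi-square was 3.95 per degree of freedom), so each sample was counted once. Some results are not reported here.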

Additional observations from a re-analysis of the deposited data

Results flagged for a closer look

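MT1X had 1.34 normalised counts in PBS replicate 4, from 2 reads, while the other 3 PBS samples had 0. The rule sets the gap to the nearest sample against the range of the group, so any read beside 3 counts of 0 is flagged. A count of 0 allows up to 3 counts, so 2 reads do not set this sample apart. This was the 1 flag in 28 groups of 4 to 7 samples examined over the members, where chance gives about 1.4.

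FWctl replicate 1, which is in none of the comparisons, had 4.07 normalised counts of MT1X, above all 4 PBS samples, from 5 reads.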

How the results depend on the processing

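Read counts limited the metallothioneins: MT1X held at most 10 reads in a library, and its call in FWatb against PBS was lost in 7 of the 11 fits that left out a replicate of either group. Under the settings that did not leave out a replicate, 275 fold changes of the members kept their direction and their side of the threshold, 16 changed sign, 13 lost a call and 7 gained one. None of those that changed sign was called. All 56 group levels recomputed with total counts or DESeq2 size factors moved by less than 1 SD. The fit within libraries of high ribosomal DNA share could not be made for ATB, which had 1 such library.

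Members called between FWctl and PBS numbered 5 to 7 under every setting, against 6. Among all genes, 7095 to 9461 were called there, against 9450. Between FWatb and PBS there were 1 in place of 2 with all 22 samples, filterByExpr, the library set as a covariate, high-share libraries only or DESeq2, 3 with total counts alone, and 1 to 3 with a replicate left out. For all genes, these settings gave 1127 to 2404, 2501 and 1334 to 2589 in the same order, against 2035. Between ATB and PBS there were 0 in place of 1 with all 22 samples, total counts alone, the library set as a covariate, only these groups in the fit or DESeq2 (222 of all genes called), and 0 to 1 with a replicate left out. At an unadjusted p under 0.05, 2 or 3 members differed between ATB and PBS in edgeR under these settings and 3 in DESeq2. Between FWatb and FWctl, 1 of 4 remained at an absolute log2 fold change above 1, and 3 to 4 with a replicate left out. The counts over all genes were 2590 and 9316 to 9850, against 9942. Between FWatb and ATB, 2 in place of 4 were called with the library set as a covariate or DESeq2, and 2 to 4 with a replicate left out. The counts over all genes were 2177, 3194 and 2162 to 3432, against 2958. DESeq2 gave no adjusted p for 10 fold changes of MT1F, MT1X, MT2A, MTF1 or SLC39A4, so its counts here cover fewer members and its missing values are not lost calls.

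Some log2 fold changes near 0 turned sign, and the cause was not tested. In FWatb against FWctl, MT1X was 0.0175 with all 22 samples, 0.0697 with total counts alone and 0.0105 in a fit of these groups, SLC30A1 was 0.0750 with total counts alone, and MT2A was -0.0805 with the library set as a covariate and -0.26 in high-share libraries. In FWatb against PBS, MTF1 was 0.0587 with total counts alone and 0.0247 in high-share libraries, and in ATB against PBS MT1X was -0.0009 with total counts alone. In FWatb against ATB, SLC39A10 was -0.0001 with DESeq2 size factors, -0.0074 with no filter, -0.0011 with filterByExpr and -0.0012 with DESeq2. With a replicate left out, MTF1 ranged from -0.13 to 0.0683 in FWatb against PBS, MT1X from -0.62 to 2.11, MT2A from -0.58 to 0.23 and MTF1 from -0.0005 to 0.21 in ATB against PBS, MT1X from -0.44 to 0.29, MT2A from -0.27 to 0.21 and SLC30A1 from -0.0804 to 0.0752 in FWatb against FWctl, and SLC39A10 from -0.0258 to 0.0279 in FWatb against ATB.

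The same mice gave both faecal waters, but the labels do not tie a replicate number to a mouse. Deviations of same-numbered FWctl and FWatb samples correlated at -0.04 to 0.45, and 8 of 12 samples correlated best with their own number. With the replicate number as a block, 5, 3, 2, 4 and 3 members were called in FWctl, FWatb and ATB against PBS, FWatb against FWctl and FWatb against ATB. MT2A in FWctl against PBS lost its call (1.58, edgeR adjusted p = 0.0632). SLC30A1 gained one against PBS in FWctl (-0.36, edgeR adjusted p = 0.00219), FWatb (-0.22, 0.0125) and ATB (0.26, 0.0263), as did SLC39A10 in FWatb (0.22). MTF1 in FWatb against PBS (0.0599), and MT1X (0.0095) and SLC30A1 (0.0329) in FWatb against FWctl, changed sign. MT1X was too low to be fitted with the block in the comparisons with PBS or ATB. Over all genes, 3229 in place of 2035 were called between FWatb and PBS and 315 in place of 58 between ATB and PBS. Without the block, these counts were 1227 and 5 with all 22 samples, FWatb against PBS gave 1127 in high-share libraries, and ATB against PBS gave 14 with total counts alone and 111 with no filter.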
